A study of Ciona robusta with 8 samples.

Results

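The genes described here are 91 gene models that were already expressed in trunk ventral cells of the sea squirt Ciona robusta at 15 hours post fertilization (hpf) and whose mean level was 2 to under 4 times as high at 18 hpf. Levels are in CPM, the count of a model scaled to a common library total. A model was taken if its mean over the 4 libraries of 15 hpf was 20 CPM or more, if its mean over the 4 libraries of 18 hpf was at least 2 and under 4 times that mean, and if its lowest library of 18 hpf lay above its highest library of 15 hpf. A list of 14 models was set aside by the rule, and 0 of them would have qualified. The 91 members were 1.89% of the 4803 models with 20 CPM or more at 15 hpf, out of 15232 models in the files. The members were thus chosen by their measured change with time, so their rise is a description and carries no test. The rule pooled both guides, so a member could pass a limit through the guide in which it was high. Of the 91 members, 81 had 20 CPM or more at 15 hpf in both guides, 8 in Tcf libraries alone and 2 in control libraries alone, and 51 met both the level and the fold range in each guide. The difference between the guides was tested over all models, and shares of members in those comparisons are descriptions of a list that the pooled values chose.

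Trunk ventral cells are the multipotent cardiopharyngeal progenitors of the ascidian embryo. They leave the tail, migrate into the ventral trunk and divide to give heart precursors and precursors of the pharyngeal muscle. Tcf is the DNA-binding effector of canonical Wnt signalling, in which stabilised beta-catenin joins Tcf on target genes and turns repression into activation. The samples were sorted trunk ventral cells in which the Tcf gene was targeted by CRISPR/Cas9 through a guide RNA (gRNA), or which received a control gRNA. The 8 libraries fall into 4 groups of 2. At 18 hpf, 2 libraries came from cells with the Tcf gRNA and 2 from cells with the control gRNA, and the same held at 15 hpf. What the control gRNA targets, the driver of Cas9, the share of cells with a mutated Tcf gene and the number of embryos behind a library are not stated in the sources used.

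Library totals ran from 6207795 to 9556959 counts, so that 1 count equalled 0.105 to 0.161 CPM. A member had at least 45 counts in every library, and all 91 passed the filter on low counts and were tested. The files give model identifiers without gene names, and 0 of the 15232 identifiers matched the reference table supplied for names. No function is therefore attached to any member, the sorted cell type was not checked against its markers, and the level of the targeted gene is not given. CPM is not scaled by transcript length, so levels are compared between libraries and not between genes. In bulk samples, fewer cells of a type that expresses a gene and less RNA per cell cannot be told apart.

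The members together took a larger share of the counts at 18 hpf, which follows from the rule that chose them. They held 1.71% and 1.82% of the counts in Tcf libraries and 1.81% and 1.87% in control libraries at 18 hpf. At 15 hpf they held 0.675% and 0.733% in Tcf libraries and 0.702% and 0.71% in control libraries. The median member had 125 and 129 CPM in Tcf and 137 and 139 CPM in control libraries at 18 hpf, against 46.1 and 54.6 CPM in Tcf and 50.1 and 50.7 CPM in control libraries at 15 hpf. The distance between the times was likewise set by the rule. At 18 hpf both Tcf libraries lay below both control libraries in this median, and at 15 hpf the guides overlapped. In the other summary of the same members, the median of each member's log2 CPM minus its own mean over the 8 libraries, the guides overlapped at 18 hpf too, with 0.56 and 0.69 in Tcf and 0.67 and 0.70 in control libraries.

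**Figure D1:**
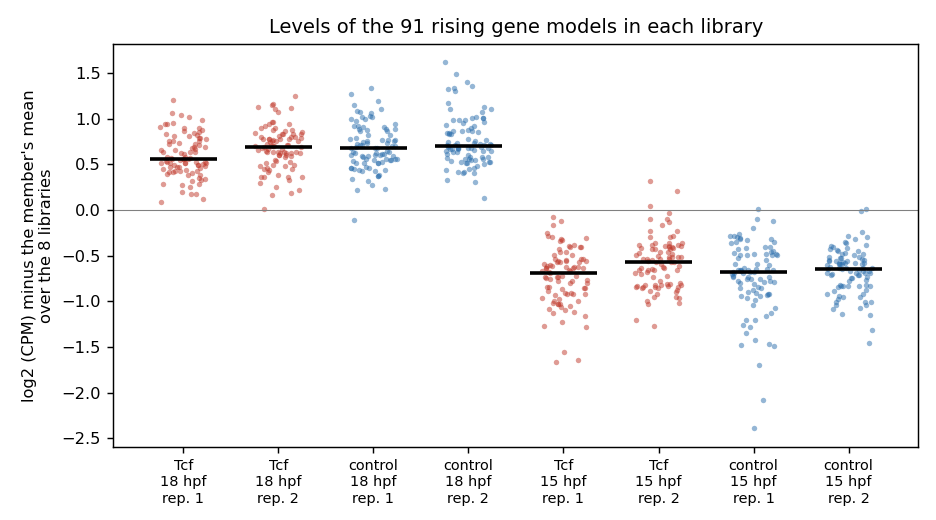
Level of each of the 91 members (points) in the 8 libraries, as log2 CPM minus the member's own mean over the 8 libraries, with the median as a bar and Tcf libraries in red and control libraries in blue. The medians lie between 0.56 and 0.70 in the libraries of 18 hpf and between -0.69 and -0.56 in those of 15 hpf, and the lowest median at 18 hpf belongs to Tcf replicate 1.

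Most members lay near the lower end of the fold range. The ratio of the mean at 18 hpf to the mean at 15 hpf had a median of 2.4 and quartiles of 2.16 and 2.82. It was under 2.5 in 52 members, 2.5 to under 3 in 20 and 3 to under 4 in 19. At 15 hpf, 44 members had 20 to under 50 CPM, 24 had 50 to under 100 CPM and 23 had 100 CPM or more. The lowest library of 18 hpf was 1.79 times the highest of 15 hpf in the median member, and more than 1.5 times in 71 of 91.

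The limits of level and fold cut through a continuum, while the limit on overlap fell in a wider gap. The smallest mean at 15 hpf among members was 20.1 CPM, and the highest among models that missed the level alone was 19.6 CPM. The smallest ratio among members was 2.001 and the next below it outside was 1.998. The largest ratio was 3.96 and the next above it outside was 4.02. The narrowest separation of the times was 1.01 in a member, and the widest of the 8 models that were left out for overlapping libraries alone was 0.838.

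**Figure D2:**
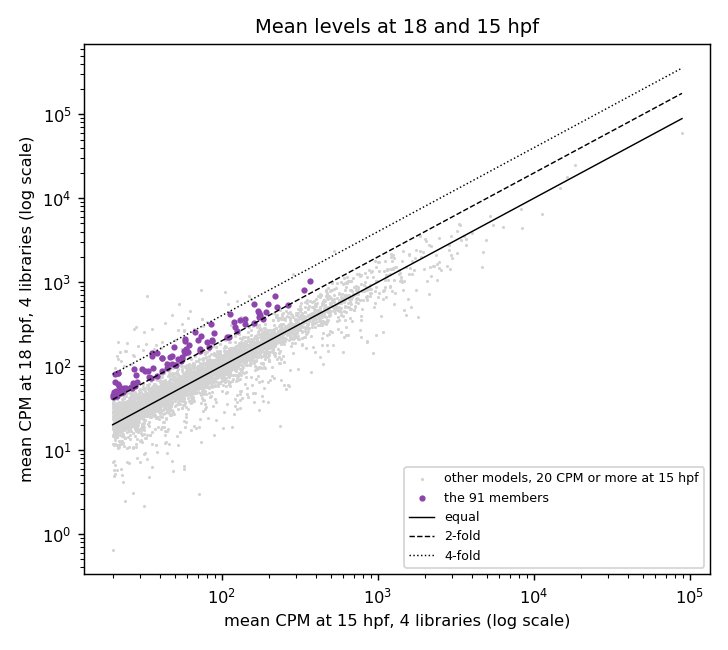
Mean CPM at 18 hpf against mean CPM at 15 hpf over 4 libraries each, both on log scales, for the 4803 models with 20 CPM or more at 15 hpf. The 91 members (purple) fill the band between the lines of 2-fold and 4-fold ratio, and most lie near the 2-fold line, with a median ratio of 2.4.

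The 2 members with the most reads show the pattern. KH.C9.176 had 905 and 1054 CPM in Tcf and 1115 and 1044 CPM in control libraries at 18 hpf, against 341 and 393 CPM in Tcf and 394 and 346 CPM in control libraries at 15 hpf. Its 4 libraries of 18 hpf all exceeded its 4 of 15 hpf, which the rule demanded of every member, and the guides overlapped at each time. KH.L65.11 had 839 and 846 CPM in Tcf and 788 and 765 CPM in control libraries at 18 hpf. At 15 hpf it had 277 and 347 CPM in Tcf and 373 and 355 CPM in control libraries. The Tcf libraries of KH.L65.11 were thus the higher ones at 18 hpf and the lower ones at 15 hpf, without overlap at either time. Fitted changes from 15 to 18 hpf were 1.35 (SE 0.10) for KH.C9.176 and 1.13 (SE 0.09) for KH.L65.11 on the log2 scale, as the mean of both guides.

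In the model fitted to all 11970 tested models, 88 of the 91 members were called higher at 18 hpf as the mean of both guides, with calls made at an adjusted p under 0.05 in edgeR. Over all tested models 12.2% were called higher in this comparison, and nothing is read from the difference, because the rule used the same change. The 3 members without a call had adjusted p between 0.0944 and 0.125, and their biological coefficient of variation, the fitted relative spread between libraries of a group, lay between 0.341 and 0.345, against a median of 0.151 over the 91 members. The size of the rise depends on the scaling. The fit scales libraries by trimmed mean of M-values (TMM) factors, while the rule used plain library totals. With library totals the median log2 change of all tested models was 0.18 and that of the members 1.26, and with TMM these were 0.04 and 1.13. Relative to the median of all models the members lay 1.09 higher under both.

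That every member rose in both guides was fixed by the rule, which let the libraries of the times not overlap. The size of the rise in each guide was left freer, and the members inside the fold range were not the same in each. Taken alone, the ratio of means ran from 1.41 to 4.18 in Tcf libraries, with a median of 2.41, and from 1.59 to 8.16 in control libraries, with a median of 2.5. It lay between 2 and under 4 in both guides in 52 members. It was under 2 in Tcf libraries in 20 members and under 2 in control libraries in 10. That 0 members were under 2 in both was fixed by the rule, since the pooled ratio lies between those of the guides. It was 4 or more in Tcf libraries in 3 members and in control libraries in 9. Within Tcf libraries 77 members were called higher at 18 hpf, where 5.7% of all tested models were, and within control libraries 83, where 7.15% were (edgeR). Both guides called 73 members, Tcf alone 4, control alone 10 and neither guide 4. These counts belong to the change that chose the members and do not show a difference between guides.

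At 15 hpf the Tcf libraries were set against the control libraries to ask whether targeting Tcf changed the level of these genes at the earlier time. Of 91 members, 0 were called by edgeR's quasi-likelihood test, where 0.00835% of all tested models were called, and the smallest adjusted p among members was 0.564. An unadjusted p under 0.05 was reached by 15 members, 9 higher and 6 lower, which is 16.5% of the members, against 5.05% of all tested models and 4.41% of the models with 20 CPM or more at 15 hpf. DESeq2 called 1 member, where it called 0.184% of all tested models, and limma-voom called 0, where it called 0.0334%. The median log2 fold change was 0.04 over the members and 0.01 over all tested models, with 51 members positive and 40 negative. This median has no stable sign, since it was -0.059 without Tcf replicate 2 and 0.12 without Tcf replicate 1 of 15 hpf.

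The members with the smallest p and higher values in Tcf libraries at 15 hpf were KH.C4.539 and KH.S605.5. KH.C4.539 had 41.3 and 58.1 CPM in Tcf libraries and 14.7 and 28.0 CPM in control libraries at 15 hpf, from 300 and 451 counts against 91 and 217. Both Tcf libraries exceeded both control libraries (edgeR adjusted p = 0.788; log2 difference 1.22 with SE 0.29). Of edgeR, limma-voom and DESeq2, DESeq2 alone called it (adjusted p = 0.0084). KH.S605.5 had 94.2 and 78.6 CPM in Tcf libraries and 54.1 and 64.4 CPM in control libraries, again without overlap (edgeR adjusted p = 0.92; log2 difference 0.55 with SE 0.16).

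Lower values with the smallest p were found for KH.C5.232 and KH.L18.10. KH.C5.232 had 42.1 and 45.1 CPM in Tcf libraries and 68.8 and 73.5 CPM in control libraries (edgeR adjusted p = 0.564; log2 difference -0.70 with SE 0.16). KH.L18.10 had 144 and 121 CPM in Tcf libraries and 186 and 194 CPM in control libraries (edgeR adjusted p = 0.754; log2 difference -0.52 with SE 0.13). In both models the guides did not overlap at 15 hpf, and neither difference passed the threshold.

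At 18 hpf the same question was put at the later time. Again 0 of 91 members were called by edgeR's quasi-likelihood test, where 0.00835% of all tested models were called, with a smallest adjusted p of 0.684. An unadjusted p under 0.05 was reached by 9 members, 2 higher and 7 lower, or 9.89%, against 3.83% of all tested models and 4.56% of the models with 20 CPM or more at 15 hpf. DESeq2 called 1 member, where it called 0.0919% of all tested models, and limma-voom called 0, where it called 0.00835%. The members leaned towards lower values in Tcf libraries, with 64 negative and 27 positive log2 fold changes and a median of -0.10. Over all tested models the median was 0.01 with 49.2% negative, and over the 4803 models with 20 CPM or more at 15 hpf it was -0.03 with 55.6% negative. The size of this median depended on single libraries. Without Tcf replicate 1 of 18 hpf the median was -0.026, against -0.02 over all tested models. It was -0.18 without Tcf replicate 2 and -0.17 without control replicate 2 of 18 hpf. Tcf replicate 1 was the lowest of the 4 libraries of 18 hpf in 43 of the 91 members, and Tcf replicate 2 in 20, while each control library was the lowest in 14. The same count over all tested models is not given, so these counts are not read as a trait of the members.

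KH.S605.5, higher in Tcf libraries by its values at 15 hpf, had the smallest p in the other direction at 18 hpf. It had 114 and 129 CPM in Tcf libraries and 196 and 206 CPM in control libraries (edgeR adjusted p = 0.684; log2 difference -0.74 with SE 0.15). DESeq2 called this difference (adjusted p = 0.0263). KH.C2.973 had 39.4 and 39.0 CPM in Tcf libraries and 69.6 and 69.4 CPM in control libraries at 18 hpf. The libraries of KH.C2.973 agreed closely within each guide and were well apart between guides, and the difference was not called (edgeR adjusted p = 0.717; log2 difference -0.85 with SE 0.19). In the other direction KH.C9.282 had 80.6 and 66.8 CPM in Tcf libraries and 47.5 and 55.5 CPM in control libraries (log2 difference 0.49 with SE 0.19). KH.L124.20 had 67.2 and 108 CPM in Tcf libraries and 57.0 and 53.3 CPM in control libraries (log2 difference 0.65 with SE 0.29). The adjusted p was 1 for both, and the Tcf libraries of KH.L124.20 differed from each other by more than the lower of them differed from control. Its log2 difference was 0.20 without Tcf replicate 2 and 0.98 without Tcf replicate 1 of 18 hpf.

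Averaged over both times, 0 of 91 members were called by edgeR's quasi-likelihood test, where 0.0167% of all tested models were. The unadjusted p was under 0.05 for 13 members, 3 higher and 10 lower, or 14.3%, against 4.12% of all tested models and 4.08% of the models with 20 CPM or more at 15 hpf. DESeq2 and limma-voom also called 0 members, where they called 0.117% and 0.00835% of all tested models. KH.C13.79 and KH.C1.423 had higher mean levels in Tcf than in control libraries at both times. KH.C13.79 had 216 and 319 CPM in Tcf and 214 and 242 CPM in control libraries at 18 hpf, where the guides overlapped. At 15 hpf it had 99.2 and 106 CPM in Tcf and 71.0 and 79.5 CPM in control libraries, without overlap. KH.C1.423 had 58.7 and 56.7 CPM in Tcf and 44.4 and 42.9 CPM in control libraries at 18 hpf, and 24.5 and 21.9 CPM in Tcf and 17.9 and 19.8 CPM in control libraries at 15 hpf. Its mean log2 fold change was 0.34 (SE 0.13), and that of KH.C13.79 was 0.33 (SE 0.13). The value of KH.C13.79 was 0.15 without Tcf replicate 2 of 18 hpf. KH.C2.973 and KH.L18.10 had mean log2 fold changes of -0.56 (SE 0.14) and -0.35 (SE 0.09). The guides overlapped at 15 hpf in KH.C2.973, with 22.7 and 20.1 CPM in Tcf and 29.2 and 22.4 CPM in control libraries. They overlapped at 18 hpf in KH.L18.10, with 496 and 533 CPM in Tcf and 519 and 628 CPM in control libraries. The adjusted p of these 4 members was 0.9995 in each case.

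**Figure D3:**
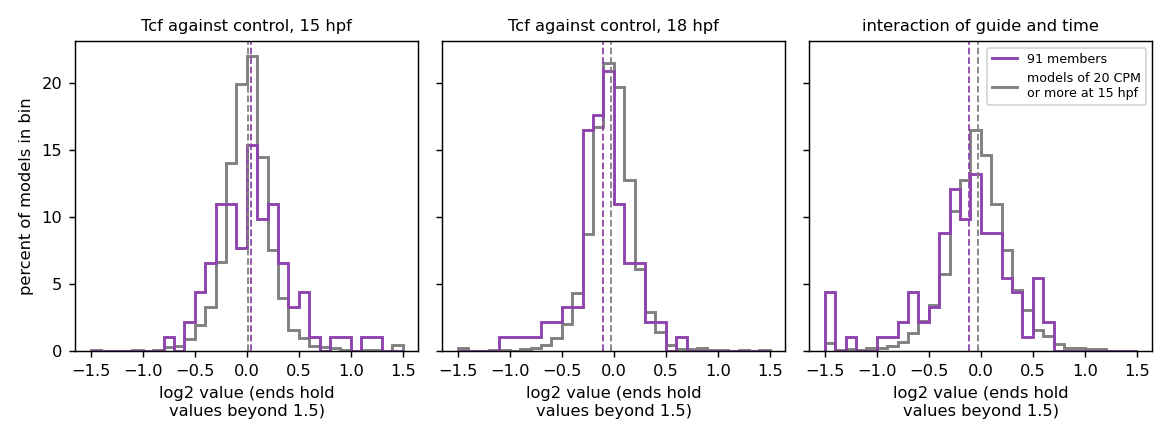
Distribution of log2 values for the 91 members (purple) and the 4803 models with 20 CPM or more at 15 hpf (grey), in percent of models per bin on the vertical axis and log2 values in bins of equal width on the horizontal axis. The panels show the difference of Tcf from control at 15 hpf (left) and 18 hpf (middle) and the interaction (right), with medians as dashed lines. The members' medians are 0.04, -0.10 and -0.11 from left to right, against 0.01, -0.03 and -0.03 for the other distribution.

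Whether the rise itself differed between the guides is the interaction of guide with time, in which a negative value means a smaller rise in Tcf than in control libraries. Of 91 members, 0 were called by edgeR's quasi-likelihood test, where 0.0% of all tested models were called. The unadjusted p was under 0.05 for 11 members, of which 9 were negative and 2 positive. This was 12.1% of the members, against 4.69% of all tested models and 4.21% of the models with 20 CPM or more at 15 hpf. The pooled rule bears on this share, so nothing is read from it. Some of the members behind it, such as KH.L22.24 and KH.C6.268, reached a mean of 20 CPM at 15 hpf in Tcf libraries alone. limma-voom called 0 members and 0.0% of all tested models. DESeq2 called 3 members, all negative, where it called 0.167% of all tested models. The median interaction was -0.11 over the members, with 58 negative and 33 positive, against 0.00 over all tested models and -0.03 over the models with 20 CPM or more at 15 hpf. Single libraries moved it between -0.021, without Tcf replicate 1 of 18 hpf, and -0.26, without Tcf replicate 1 of 15 hpf, and it was -0.04 without Tcf replicate 2 of 15 hpf and -0.19 without Tcf replicate 2 of 18 hpf.

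**Figure D4:**
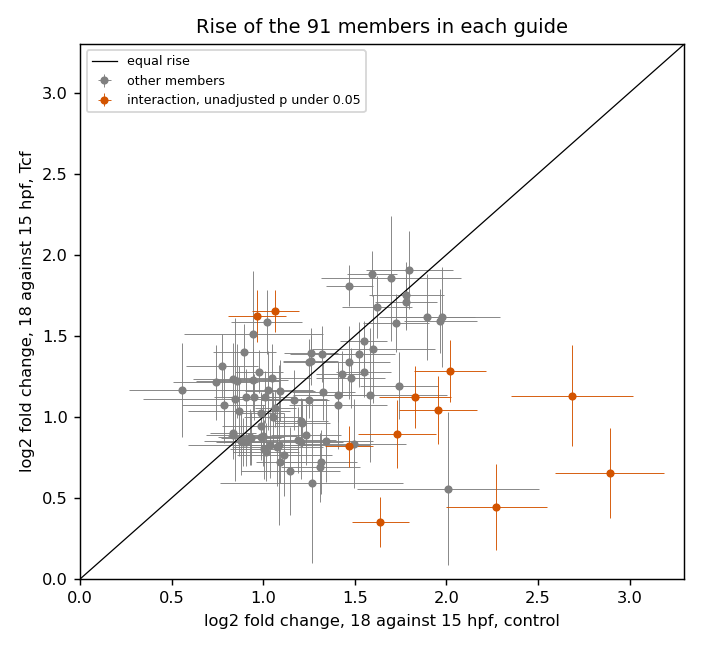
Fitted log2 fold change from 15 to 18 hpf in Tcf libraries against that in control libraries for the 91 members, with bars of 1 SE and a line of equal rise. The 11 members with an unadjusted interaction p under 0.05 are orange, and 9 of them lie below the line, with KH.C4.539 farthest to the right at 2.89 in control and 0.65 in Tcf libraries.

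KH.S605.5 had the smallest adjusted p of the interaction. Its mean was 122 ± 10.6 CPM in Tcf and 201 ± 7.39 CPM in control libraries at 18 hpf, and 86.4 ± 11.0 CPM in Tcf and 59.3 ± 7.26 CPM in control libraries at 15 hpf (SD, n = 2 libraries each). The ratio of 18 to 15 hpf was thus 1.41 in Tcf and 3.39 in control libraries (edgeR adjusted p = 0.27; interaction -1.29 with SE 0.22). KH.C4.539 had 86.9 ± 13.7 CPM in Tcf and 174 ± 23.5 CPM in control libraries at 18 hpf, and 49.7 ± 11.9 CPM in Tcf and 21.3 ± 9.4 CPM in control libraries at 15 hpf (SD, n = 2 libraries each). Its ratio was 1.75 in Tcf and 8.16 in control libraries (edgeR adjusted p = 0.318; interaction -2.24 with SE 0.40). The control ratio lies outside the range that the rule set for the mean of both guides. DESeq2 called the interaction of both models (adjusted p = 0.00093 for KH.S605.5 and 1.02e-05 for KH.C4.539), and edgeR called that of KH.C4.539 without control replicate 2 of 15 hpf (adjusted p = 0.0203), where 0.0314% of all tested models were called.

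KH.L22.24 was also called by DESeq2 (adjusted p = 0.00806) and is named after its values were seen. It had 36.6 and 48.3 CPM in Tcf and 76.1 and 84.8 CPM in control libraries at 18 hpf, and 20.7 and 35.4 CPM in Tcf and 14.2 and 16.4 CPM in control libraries at 15 hpf. Its ratio was 1.51 in Tcf and 5.27 in control libraries (edgeR adjusted p = 0.534; interaction -1.83 with SE 0.38). Both ratios lie outside the range of the rule. Its mean at 15 hpf was 28.0 CPM in Tcf and 15.3 CPM in control libraries, so it reached 20 CPM through the Tcf libraries. KH.C6.268, also named after its values were seen, was called by edgeR only without control replicate 2 of 15 hpf, at 15 hpf (adjusted p = 0.0226), where 0.0471% of all tested models were called, and in the interaction (adjusted p = 0.0216). It had 28.6 and 28.3 CPM in Tcf libraries and 7.25 and 18.5 CPM in control libraries at 15 hpf, so that the 2 control libraries differed by more than 2-fold from each other. KH.C6.268 thus also reached 20 CPM through the Tcf libraries. Its ratio was 2.43 in Tcf and 7.14 in control libraries, the latter outside the range of the rule.

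The opposite case, a larger rise in Tcf libraries, was rarer among the smallest p-values. At an unadjusted interaction p under 0.05 (edgeR), the members had 2 positive and 9 negative values. Models with 20 CPM or more at 15 hpf had 72 and 130, and all tested models had 254 and 307. The lean thus had the same direction outside the members and was weaker there. This difference was not tested, and the pooled rule bears on it. KH.C1.200 had 579 and 611 CPM in Tcf and 484 and 546 CPM in control libraries at 18 hpf, and 158 and 183 CPM in Tcf and 241 and 212 CPM in control libraries at 15 hpf. Its ratio was 3.5 in Tcf and 2.28 in control libraries (edgeR adjusted p = 0.959; interaction 0.59 with SE 0.18). KH.C5.232 had 135 and 163 CPM in Tcf and 150 and 152 CPM in control libraries at 18 hpf, so the guides overlapped there and not at 15 hpf (edgeR adjusted p = 0.959; interaction 0.66 with SE 0.22).

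**Figure D5:**
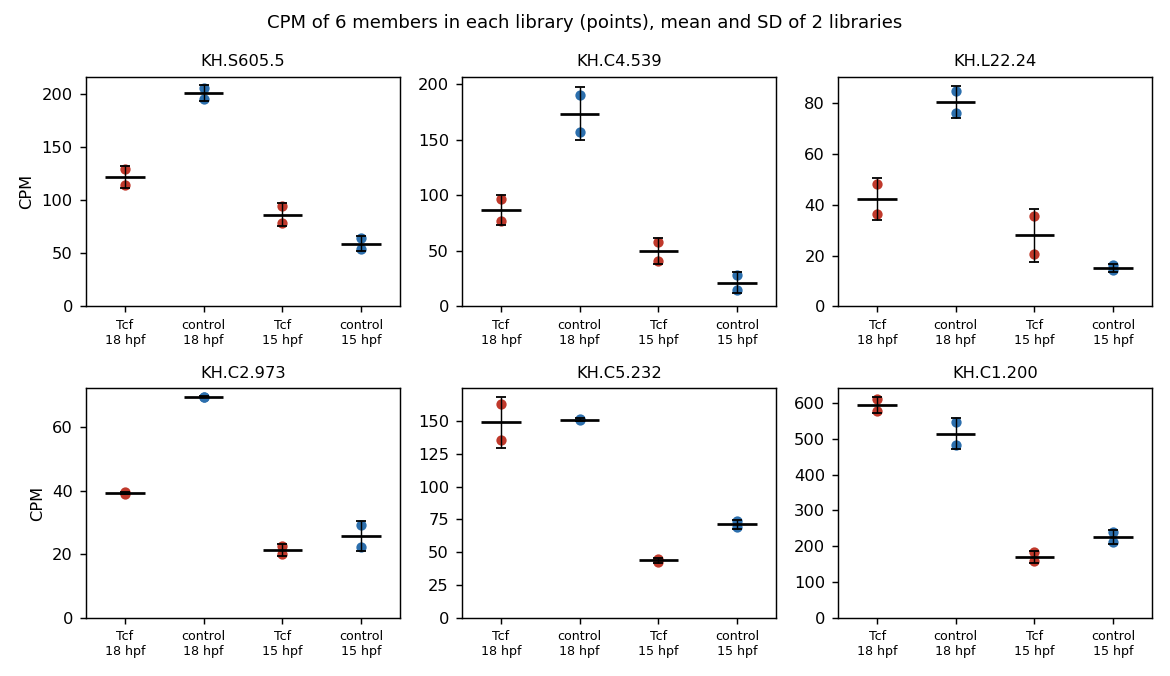
CPM of 6 members in the 8 libraries (points), with the mean and SD of 2 libraries, Tcf groups in red to the left of the control group of the same time in blue. In KH.S605.5, KH.C4.539 and KH.L22.24 the Tcf libraries lie below control at 18 hpf and above it at 15 hpf, while in KH.C1.200 they lie above control at 18 hpf and below it at 15 hpf.

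The crossing was counted over all members after it had been seen in these 3 models. In 10 of 91 members both Tcf libraries lay above both control libraries at 15 hpf and below both at 18 hpf. This was 11.0% of the members, against 2.41% of all tested models and 3.04% of the models with 20 CPM or more at 15 hpf. Of these 10 members, 7 did not meet the level and the fold range in each guide alone, so the pooled rule bears on this share and nothing is read from it. The ratio of 18 to 15 hpf in the 10 members ran from 1.41 to 2.69 in Tcf and from 2.55 to 8.16 in control libraries. Their interaction values lay between -2.24 and -0.34, and the smallest of their adjusted p was 0.27. The reverse crossing was found in 2 members, KH.C1.200 and KH.L65.11, or 2.2%, against 2.81% of all tested models. At single times, both Tcf libraries exceeded both control libraries in 20 members at 15 hpf, where 17.0% of all tested models did, and in 13 members at 18 hpf, where 18.3% did. Over the models with 20 CPM or more at 15 hpf these shares were 17.0% and 17.5%. Both Tcf libraries were below both control libraries in 13 members at 15 hpf, where 15.2% of all tested models were, and in 27 members at 18 hpf, where 13.9% were. The 27 members are 29.7% of the 91, and over the models with 20 CPM or more at 15 hpf the shares of lower models were 15.1% at 15 hpf and 17.0% at 18 hpf. With 2 libraries against 2 an exact permutation test cannot go below p = 0.333, so these counts are a description.

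Replicates of a group differed as follows. Between the 2 libraries of a group the median member differed by a factor of 1.12 in Tcf and 1.11 in control libraries at 18 hpf, and by 1.19 in Tcf and 1.18 in control libraries at 15 hpf. Over the 4803 models with 20 CPM or more at 15 hpf the factors were 1.10 and 1.14 at 18 hpf and 1.11 and 1.14 at 15 hpf, in the same order of guides. The fitted biological coefficient of variation had a median of 0.151 over the members and 0.147 over those 4803 models. In Tcf libraries replicate 1 was the lower one in 57 of 91 members at 18 hpf, or 62.6%, against 49.4% of the 4803 models, and in 57 of 91 at 15 hpf, against 42.9%. In control libraries it was the lower one in 54 members, or 59.3%, at 18 hpf and in 50, or 54.9%, at 15 hpf, against 55.3% and 49.8% of the 4803 models.

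The same measures were taken in 2 neighbouring sets to place the members. The sets were the 41 models with 20 CPM or more at 15 hpf that rose 4-fold or more and the 127 that fell by 2 to under 4-fold, both without overlap of the times. The median interaction was -0.11 in the members, -0.22 in the stronger risers and 0.04 in the models that fell, with 63.7%, 65.9% and 44.1% negative values. At 18 hpf the median Tcf effect was -0.10 in the members, -0.20 in the stronger risers and 0.07 in the models that fell. At 15 hpf it was 0.04, 0.15 and 0.03. The crossing from higher Tcf values at 15 hpf to lower ones at 18 hpf was found in 11.0% of the members, 26.8% of the stronger risers and 1.57% of the models that fell. Both Tcf libraries lay below both control libraries at 18 hpf in 29.7%, 46.3% and 10.2% of these sets. At 15 hpf the unadjusted p was under 0.05 in 16.5%, 31.7% and 7.87%. In these 3 shares the members lay between the neighbouring sets, with the stronger risers highest. The order of the last share did not hold at 18 hpf or for the mean of both times. At 18 hpf the unadjusted p (edgeR) was under 0.05 in 9.89%, 21.95% and 14.17%, with the members lowest. Averaged over both times it was under 0.05 in 14.3%, 9.76% and 15.75%, with the stronger risers lowest. Both neighbouring sets had 0 models called in the interaction (edgeR), with 12 of 41 and 13 of 127 at an unadjusted p under 0.05. The differences between the 3 sets were not tested, and they share all 8 libraries. All 3 sets were chosen by a change with time pooled over both guides. Such a choice bears on the crossing and on the other shares, so no trait of the members is read from them.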

How the data were processed

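Bulk RNA sequencing of sorted trunk ventral cells gave 8 libraries, 2 per group by sample title. The labels' protocols give 200 to 800 sorted cells per sample and 250 to 2000 pg of RNA for SMART-Seq v4 cDNA synthesis and an Ovation library kit. The authors deposited raw read counts per KH2013 gene model. TopHat2 2.0.12 and featureCounts are named in the submitters' processing notes. The sources used here do not state the genome build, the strand setting or how reads with several matches were treated. Overlapping or near-identical models may therefore share reads. No molecular identifiers are described, so reads are not independent molecules. No label says whether the 2 libraries of a group come from separate batches of embryos, so the spread behind the p-values is that between these samples and may be technical. Replicate numbers follow the titles; the file headers give them reversed for the control libraries at 15 hpf. Libraries of a group differed by far more than sampling noise (chi-square per degree of freedom 8.29 to 15.7), and none was treated as a duplicate.

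CPM were computed from library totals. Counts were fitted with edgeR 4.0.16 (limma 3.58.1, DESeq2 1.42.0, R 4.3.3), with filterByExpr at a minimum count of 10, TMM factors, 4 group means over all 8 libraries, the robust quasi-likelihood F test and Benjamini-Hochberg adjustment over 11970 models, with calls at an adjusted p under 0.05. SE was derived from the fitted log2 difference and the F statistic (difference over root F). The pipeline was tested on simulated counts, and the outcome is not given here. A count of 0 calls is therefore not read as an absence of change. The members, lists and tests were chosen with earlier results of these data known. Named members are the 2 with the highest mean CPM and, per comparison, the 2 with the smallest unadjusted p in each direction, since no member was called.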

Additional observations from a re-analysis of the deposited data

How the results depend on the processing

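The rule gave 91 members. It gave 157 with a minimum of 10 CPM and 56 with a minimum of 40 CPM at 15 hpf, 75 with TMM-scaled CPM (64 of the 91 among them), 99 without the demand on overlap, 98 in Tcf libraries alone and 96 in control libraries alone (66 and 67 of the 91), and 87 to 97 without single libraries. DESeq2 called 1 member at 15 hpf, 1 at 18 hpf and 3 in the interaction, where edgeR called 0. Without single libraries edgeR called 0 to 1 at 15 hpf, 0 at 18 hpf, 0 for the mean of both times and 0 to 2 in the interaction. The 77 members called with time in Tcf and 83 in control libraries became 54 to 78 and 72 to 85. Median log2 values ranged from -0.059 to 0.12 at 15 hpf, from -0.18 to -0.026 at 18 hpf and from -0.26 to -0.021 in the interaction. Such a fit leaves 1 group with a lone library, which is assumed to vary like the other groups; the cause of these shifts was not tested. Of 282 refits of the named members' values, 277 kept direction and side of the threshold, 5 kept direction and passed it, and 0 changed sign.

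Same-numbered libraries of compared groups did not deviate together (r of replicate differences -0.16 between guides at 18 hpf, 0.05 at 15 hpf, 0.06 between times in Tcf and -0.00 in control libraries), so the numbers are not known to pair samples. With the replicate block edgeR called 0 members in each comparison of guides and in the interaction, and 77 and 83 with time in Tcf and control libraries. With the pairing crossed at 18 hpf, an alternative chosen after seeing the data, 0 members were called there.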

Other observations

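The identifiers of the members were spread over the gene set. Of the 91, 70 begin with KH.C, 17 with KH.L and 4 with KH.S, which is 76.9%, 18.7% and 4.4%, against 72.0%, 20.4% and 7.68% of the 4803 models with 20 CPM or more at 15 hpf. The 91 identifiers carry 33 different numbered prefixes.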
